A study of Rattus norvegicus with 12 samples.

Results

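The genes described here are named as those of cytosolic ribosomal proteins, though Rpl7l1 among them is a nuclear relative with a role in ribosome assembly. They were taken as every array probe whose single gene symbol has the form of a large subunit (Rpl, Rplp) or small subunit (Rps, Rpsa) ribosomal protein, kinases left out. The rule found 44 genes, each with 1 probe, among 3939 named genes on 7200 probes: 29 of the large subunit and 15 of the small subunit. The probe of Rpl5 held no usable ratio. On 11 of the 12 arrays it carried a value that 272 to 298 probes of the same array shared, and on the remaining array, the fluor array of 2 h rat 1, it read -5.21. The counts and medians below therefore cover 43 genes, 28 large and 15 small, and Rpl5 passed no test at either time.

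Rats were given lipopolysaccharide (LPS), a cell wall component of Gram-negative bacteria, and their RNA was set against pooled control RNA on 2-colour arrays at 2 h in 3 rats (rats 1, 2 and 3) and at 6 h in 3 rats (rats 2, 4 and 6). Only the title of the series names the material, blood. The pool was that of the same time, and each rat took 2 arrays: on the fluor array the pool was in channel 1 and the rat in channel 2, and on the flip array the channels were exchanged. The values are log2 ratios, averaged over both arrays of a rat, and the rat is the replicate (n = 3 per time). The sources used here do not give strain, age, LPS dose and route, the number of animals in each pool or what the control animals received. The control pool counts as 1 sample, so a test of the mean ratio against 0 leaves out the spread between control animals. Ratios carry no level, so the labelled tissue could not be checked against its defining markers.

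A negative value is read as lower after LPS, and this direction is likely and not settled, because the labels give the channels but not how the deposited ratio was formed. Its basis is textbook LPS-induced genes, looked at with earlier results of these data known: of 8 measured, 5 were positive on each of the 12 arrays (Zfp36, Lcn2, Irf1, Il1r2 and Il1b), Sod2 on 10, Tnf on 8 and Nfkbia on 3. Every "lower" and "higher" below holds for the values as deposited. With the flip arrays multiplied by -1, the other reading, 1 ribosomal protein gene was lower and 2 higher at 2 h, and 1 was lower and 13 higher at 6 h. The shares over all named genes in that reading are not given, so these counts have no comparison.

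Ribosomal proteins coat and brace the ribosomal RNA of the subunits that join on an mRNA to make protein. The small subunit reads the code, and the large subunit joins the amino acids and carries the stalk that recruits the elongation factors. The mRNAs of nearly all these proteins begin at the cap with a C followed by an unbroken stretch of pyrimidines, the terminal oligopyrimidine tract, through which the TOR pathway and the protein LARP1 adjust their translation and stability together. In blood these mRNAs are plentiful in lymphocytes and in immature red cells and scarcer in mature neutrophils.

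RefSeq start sites on build GRCr8 were at hand for 37 of the 44 genes. The 30 bases around the start of 10 of them are shown, 15 before and 15 after, because most members hold a pyrimidine run in this stretch. The first 7 are among the genes that were lower at both times and the last 3 were not. Capitals mark the longest run of C and T, and all are written 5′ to 3′ on the strand of the gene.

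Rps6 (chr5:106420526-106420555, minus strand): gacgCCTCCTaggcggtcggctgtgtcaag
Rpl4 (chr8:73566462-73566491, plus strand): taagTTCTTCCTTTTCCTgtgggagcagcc
Rps23 (chr2:23814502-23814531, plus strand): tgggtccttcctgCCTCTCTTCTCTCTTTC
Rps3 (chr1:163195762-163195791, minus strand): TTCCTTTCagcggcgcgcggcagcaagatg
Rps7 (chr6:50999431-50999460, minus strand): tcgcgagagctgtgTCTCTTTCTaagccgg
Rps13 (chr1:180009646-180009675, minus strand): gccgtttcctacctcgTTCTCTCTTTgctt
Rplp0 (chr12:46718376-46718405, minus strand): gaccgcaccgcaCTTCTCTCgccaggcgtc
Rplp1 (chr8:71290858-71290887, minus strand): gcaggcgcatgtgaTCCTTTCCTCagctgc
Rpl36a (chrX:102059434-102059463, plus strand): ccgcctataaaCTTCCgttgctgctctagc
Rpl41 (chr7:1563483-1563512, minus strand): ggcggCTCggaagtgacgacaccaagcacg

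A run of 6 or more C or T on the gene's strand lay in this window in 31 of the 37 genes (83.8%), against 27.6% of 18999 protein-coding genes with a start in the same table. A run of 8 or more was present in 62.2% of them, against 11% of all. The letters CTTTC stood there in 20 of 37 (54.1%, against 3.56%), and their reverse complement GAAAG in 1 (2.7%, against 3.42%); a CTTTC can lie inside a counted run. In the 250 bases before the start, TATAAA on either strand was found in 10.8% of the members and 12.3% of all genes, and CTTCCG on either strand in 48.6% and 17.6%. Among members with a ratio, the run of 6 or more was present in 19 of 21 genes that were lower at both times and in 11 of the 15 others, with a median longest run of 9 bases in either set. The window of Rplp1, which was not lower, holds a run of 10 bases, and that of Rps7, which was, a run of 9. The longest run was 3 bases in the windows of Rpl36, which was lower, and Rpl41, which was not. These are matches of letters at annotated starts, which can lie a few bases from the true cap site.

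At 2 h, 26 of the 43 genes were lower than the control pool, 2 were higher and 15 did not pass (limma, Benjamini-Hochberg adjusted p under 0.05 over all 3939 named genes). Of all named genes, 9.82% were lower and 9.34% higher. The median log2 ratio of the 43 was -0.31, a ratio of 0.804, with quartiles at -0.52 and -0.043, and the median of all named genes was -0.0070. Of the other genes, 3.52% lay below the members' median. The shift was seen in each rat: the members' medians were -0.23, -0.30 and -0.34 in rats 1, 2 and 3, with 34, 34 and 36 of 43 genes below 0. In blood, fewer cells of a type that is rich in these mRNAs and less of the mRNA per cell cannot be told apart.

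At 6 h, 30 of 43 were lower, 2 were higher and 11 did not pass, against 10.7% lower and 8.30% higher among all named genes. The members' median was -0.44, a ratio of 0.736, and 1.8% of the other genes lay below it. Medians per rat were -0.44, -0.31 and -0.45 in rats 2, 4 and 6. The 6 h median was -0.36 without rat 2. The 26 genes that were lower at 2 h were all lower at 6 h too, and Rpl23, Rpl31, Rpl34 and Rps21 were lower at 6 h alone, the difference between the times not passing for any of these 4. Among all named genes 6.47% were lower at both times. On the single arrays, 25 of the 43 genes lay below 0 on all 12, against 6.37% of all named genes. Above 0 on all 12 lay 0 of the 43, a count for which the share over all named genes is not given.

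**Figure D1:**
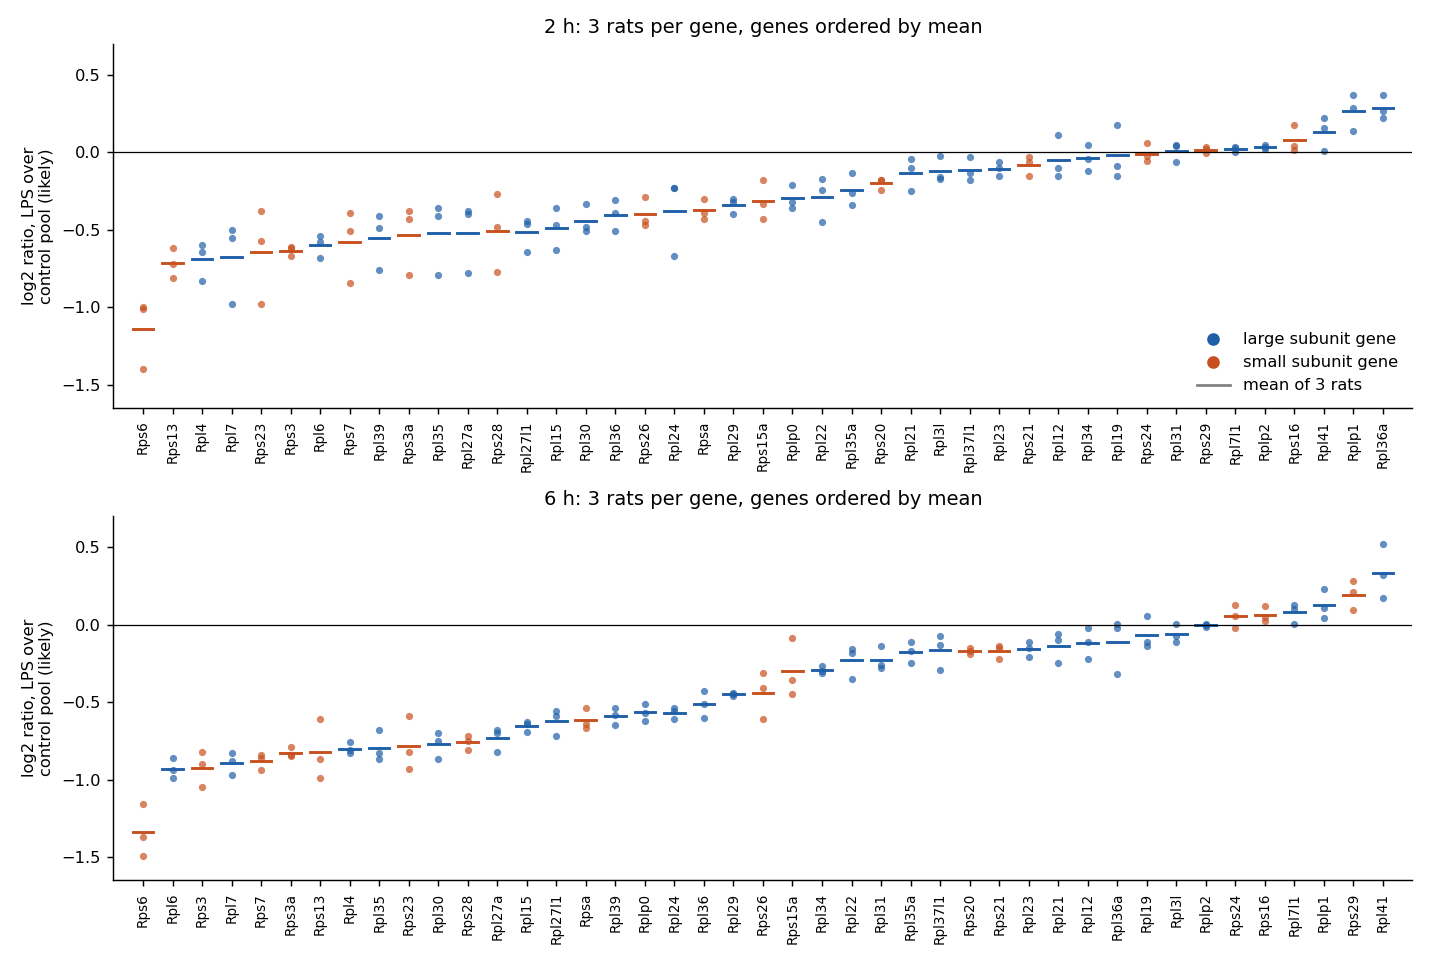
Log2 ratio of each ribosomal protein gene to the control pool (vertical axis) in each rat at 2 h (top) and 6 h (bottom), for the 43 genes with a ratio, ordered by mean. Points are rats, each the mean of its fluor and flip arrays, bars are means of 3 rats, and colours mark the subunit. Rps6 is the lowest gene at both times, with means of -1.13 and -1.34, and most genes lie below 0.

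Of the 15 small subunit genes, 11 were lower at 2 h and 12 at 6 h, with medians of -0.40 and -0.62. Rps6, the small subunit protein that S6 kinases phosphorylate downstream of TOR, was the lowest of all members. Its log2 ratios at 2 h were -1.01, -1.0 and -1.40, and at 6 h they were -1.37, -1.49 and -1.16. It was low in every rat, and the times overlapped. The means were -1.13 ± 0.23 (SD, n = 3; 2.2-fold lower; limma adjusted p = 0.00066) and -1.34 ± 0.17 (2.53-fold lower; adjusted p = 0.000201). Rps6 was the single member whose mean passed a 2-fold change at either time.

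Rps13, a small subunit protein that sits at the face toward the large subunit, had ratios of -0.62, -0.72 and -0.81 at 2 h and -0.61, -0.99 and -0.87 at 6 h. The rats of the times overlap. Its means were -0.72 ± 0.10 (adjusted p = 0.0012) and -0.82 ± 0.19 (adjusted p = 0.000489). With flip arrays alone its 2 h mean was -0.45 and the call ended (adjusted p = 0.108). Rps23, which lies by the decoding site, had ratios of -0.38, -0.57 and -0.98 at 2 h, with rat 3 well below the others, and -0.82, -0.59 and -0.93 at 6 h. Its means were -0.65 ± 0.31 (adjusted p = 0.00961) and -0.78 ± 0.17 (adjusted p = 0.00443).

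Rps3, part of the channel by which mRNA enters the small subunit and also a repair nuclease, stood at -0.67, -0.61 and -0.62 at 2 h and at -0.90, -1.05 and -0.82 at 6 h. Each 6 h rat was below each 2 h rat, but the difference of -0.29 ± 0.064 (SE) did not pass (adjusted p = 0.107). It lay mostly on the flip arrays: the fluor means of Rps3 were -0.70 at 2 h and -0.76 at 6 h, and its flip means -0.56 and -1.08. Rps7, a small subunit protein that also binds the p53 regulator Mdm2, stood at -0.39, -0.51 and -0.84 at 2 h and -0.86, -0.94 and -0.84 at 6 h. The 2 h rats were spread and the 6 h rats close together, with means of -0.58 ± 0.24 (adjusted p = 0.00398) and -0.88 ± 0.054 (adjusted p = 0.000597). Rpsa, the small subunit protein once described as a laminin receptor, had ratios of -0.43, -0.30 and -0.39 and then -0.67, -0.64 and -0.54. All 6 h rats were lower than all 2 h rats, and the difference of -0.25 ± 0.055 (SE) did not pass (adjusted p = 0.107).

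The other small subunit genes that were lower at both times were Rps3a (means -0.54 and -0.82), Rps28 (-0.51 and -0.76), Rps26 (-0.40 and -0.44), Rps15a (-0.31 and -0.30) and Rps20 (-0.20 and -0.17). The call of Rps15a at 2 h ended without 2 h rat 2 (adjusted p = 0.154), 2 h rat 3 (0.0883) or 6 h rat 2 (0.0503), and at 6 h without 6 h rat 2 (0.173) or 6 h rat 6 (0.133). Rps21 was lower at 6 h alone (-0.17 ± 0.043, adjusted p = 0.0165), with 2 h ratios of -0.060, -0.15 and -0.030; this call ended without any 1 of the 6 h rats 2, 4 and 6 (adjusted p = 0.0749, 0.0579 and 0.0877). Rps24 and Rps16 passed at neither time, with means between -0.0070 and 0.079.

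Rps29, a small zinc-binding protein of the small subunit, was the single member of that subunit that was higher at any time. Its ratios were -0.0028, 0.020 and 0.032 at 2 h and 0.093, 0.21 and 0.28 at 6 h. Each 6 h rat was above each 2 h rat, in this 1 of 43 members and in 11.6% of all named genes. The 6 h mean was 0.19 ± 0.093 (adjusted p = 0.0159). This call ended without 6 h rat 4 (adjusted p = 0.0794) or 6 h rat 6 (0.0806) and with flip arrays alone (0.056), and the difference between the times, 0.18 ± 0.055 (SE), did not pass (adjusted p = 0.213).

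Of the 28 large subunit genes, 15 were lower at 2 h and 18 at 6 h, with medians of -0.26 at each time; 2 were higher at 2 h and 1 at 6 h. The small subunit medians were lower, but the genes of a subunit are not replicates and the subunits were not tested against each other. Rpl4, whose extension lines the tunnel by which the new protein leaves, stood at -0.60, -0.64 and -0.83 at 2 h and -0.81, -0.83 and -0.76 at 6 h. The rats were close at 6 h and overlapped between the times, with means of -0.69 ± 0.13 (adjusted p = 0.000415) and -0.80 ± 0.040 (adjusted p = 0.000132).

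Rpl7 had ratios of -0.55, -0.50 and -0.98 at 2 h and -0.97, -0.88 and -0.83 at 6 h. In 2 h rat 3 it was already as low as in the 6 h rats. Its means were -0.68 ± 0.26 (adjusted p = 0.00329) and -0.89 ± 0.072 (adjusted p = 0.000851). Rpl6 stood at -0.58, -0.68 and -0.54 at 2 h and -0.94, -0.99 and -0.86 at 6 h. Each 6 h rat was below each 2 h rat, and the 6 h mean of -0.93 ± 0.069 was the lowest of the large subunit (1.9-fold lower; adjusted p = 7.7e-05). The change between the times, -0.33 ± 0.056 (SE), had the smallest adjusted p of any member (0.0594), which misses the threshold. It lay mostly on the flip arrays: the fluor means of Rpl6 were -0.66 at 2 h and -0.72 at 6 h, and its flip means -0.54 and -1.14.

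The remaining large subunit genes lower at both times were Rpl15, Rpl22, Rpl24, Rpl27a, Rpl27l1, Rpl29, Rpl30, Rpl35, Rpl35a, Rpl36, Rpl39 and Rplp0. Their 2 h means ran from -0.55 (Rpl39) to -0.24 (Rpl35a) and their 6 h means from -0.79 (Rpl35) to -0.18 (Rpl35a). Rpl30, which in its free form also binds its own transcript in yeast, went from a mean of -0.44 ± 0.10 to -0.77 ± 0.086. Rpl29 varied least between rats at 6 h, at -0.45 ± 0.010. Calls that ended without a single rat were those of Rpl22 and Rpl35a at 2 h, without 2 h rat 2 (adjusted p = 0.0868 and 0.0795) or 2 h rat 3 (0.0554 and 0.0591). At 6 h both ended without any of the 6 h rats 2, 4 and 6, where their adjusted p lay between 0.0768 and 0.207, and Rpl22 ended without 2 h rat 3 too (0.0532).

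Rpl34 and Rpl31 were near 0 at 2 h and lower at 6 h. Rpl34 stood at 0.050, -0.12 and -0.045, then at -0.31, -0.27 and -0.30 (6 h adjusted p = 0.00252). Rpl31 stood at 0.044, 0.051 and -0.060, then at -0.14, -0.28 and -0.26 (6 h adjusted p = 0.0086). In both the rats of the times did not overlap, as in 11 of 43 members whose every 6 h rat was below every 2 h rat, against 10.1% of all named genes. Rpl23 was at -0.10 ± 0.042 and -0.16 ± 0.050, and its 6 h call ended without 6 h rat 2 (adjusted p = 0.0877) or 6 h rat 4 (0.0932). The 6 h call of Rpl31 ended without 6 h rat 4 (0.052) or 6 h rat 6 (0.0558).

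The stalk genes had unlike calls. Rplp0, the base of the stalk, stood at -0.32, -0.21 and -0.36 at 2 h and at -0.51, -0.57 and -0.62 at 6 h. It was lower at both times (-0.30 ± 0.075, adjusted p = 0.00308; -0.57 ± 0.051, adjusted p = 0.000195). Rplp1, an acidic protein bound to that base, stood at 0.14, 0.37 and 0.29 and then at 0.11, 0.23 and 0.042. It was above 0 in every rat and higher at 2 h (0.27 ± 0.12, adjusted p = 0.0167), a call that ended without 2 h rat 2 (adjusted p = 0.0882) or 2 h rat 3 (0.0624). At 6 h its mean was 0.29 over fluor arrays and -0.041 over flip arrays. Rplp2, its partner, stayed between -0.016 and 0.050 in all 6 rats and passed at neither time.

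Rpl36a, a zinc-binding protein near the site where the spent tRNA leaves, stood at 0.22, 0.27 and 0.37 at 2 h and at -0.021, 0.0074 and -0.32 at 6 h. It was higher at 2 h (0.28 ± 0.075, adjusted p = 0.0278) and the call ended without any 1 of 2 h rats 1, 2 and 3 (adjusted p = 0.0599, 0.109 and 0.0962). Its difference between the times was the largest of the members (-0.39 ± 0.093 SE, adjusted p = 0.115). Rpl41, the shortest ribosomal protein, stood at 0.22, 0.16 and 0.012 and then at 0.32, 0.52 and 0.17. It was higher at 6 h (0.33 ± 0.18, adjusted p = 0.0172) and the call ended without 6 h rat 2 (0.0864) or 6 h rat 4 (0.0683). At 6 h its mean over fluor arrays was 0.63 and over flip arrays 0.039, and with flip arrays alone the 6 h call ended (adjusted p = 0.768).

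Rpl12, Rpl19, Rpl21, Rpl37l1, Rpl3l and Rpl7l1 passed at neither time, with means between -0.17 and 0.079. Rpl3l is the form of Rpl3 found in skeletal and heart muscle, and Rpl7l1 is a nuclear relative of Rpl7 with a role in ribosome assembly. Many ribosomal protein genes have processed copies elsewhere in the genome whose transcripts a cDNA probe cannot tell from the parent's, and Rpl27l1 and Rpl37l1 are named as such relatives, so each value belongs to the probe and to any close copy it detects.

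**Figure D2:**
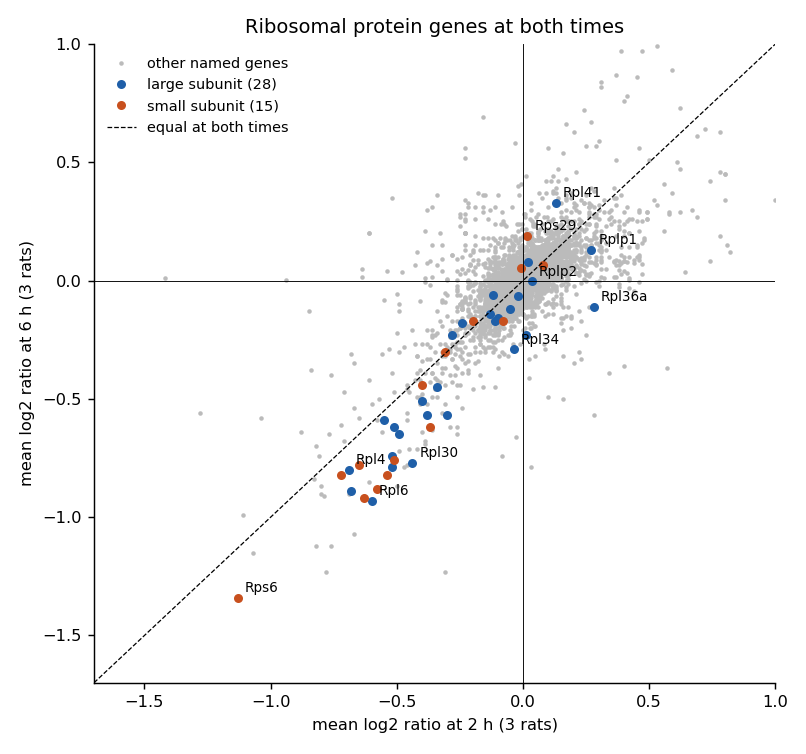
Mean log2 ratio at 2 h (horizontal axis) against 6 h (vertical axis) for large subunit (blue) and small subunit (orange) genes and all other named genes (grey); other genes beyond the axes are not shown. Most members lie below the dashed line of equal values, and Rpl36a (0.28 at 2 h, -0.11 at 6 h) lies farthest from it among the members.

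The order of the members was much the same at both times. Across the 43 genes the 2 h and 6 h means correlated at Pearson r = 0.94 and Spearman rho = 0.95, against 0.74 and 0.63 over the 3895 other genes; genes are not independent replicates and no p is given. The 6 h mean lay below the 2 h mean in 34 of 43 members and in 22 of the 26 that were lower at both times, against 1982 of all 3939 named genes. The median difference, 6 h minus 2 h, was -0.11. On fluor arrays the members' medians were -0.21, -0.25 and -0.51 at 2 h and -0.35, -0.35 and -0.31 at 6 h. On flip arrays they were -0.22, -0.32 and -0.17, then -0.42, -0.38 and -0.64. The times thus overlapped on fluor arrays and not on flip arrays. By limma 0 of the 43 passed in either direction, against 0.178% of all named genes lower and 0.330% higher, while at an unadjusted p under 0.05, 11 members were lower and 1 higher, beside 280 and 289 of the 3939 named genes. In the alternatives, 3 passed as lower without 2 h rat 3 (Rpl24, Rps7 and Rps3a), 2 with all arrays and a rat block (Rpl34 and Rpl36a) and 1 with scaled arrays (Rpl30). The difference also holds any difference between the control pools.

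**Figure D3:**
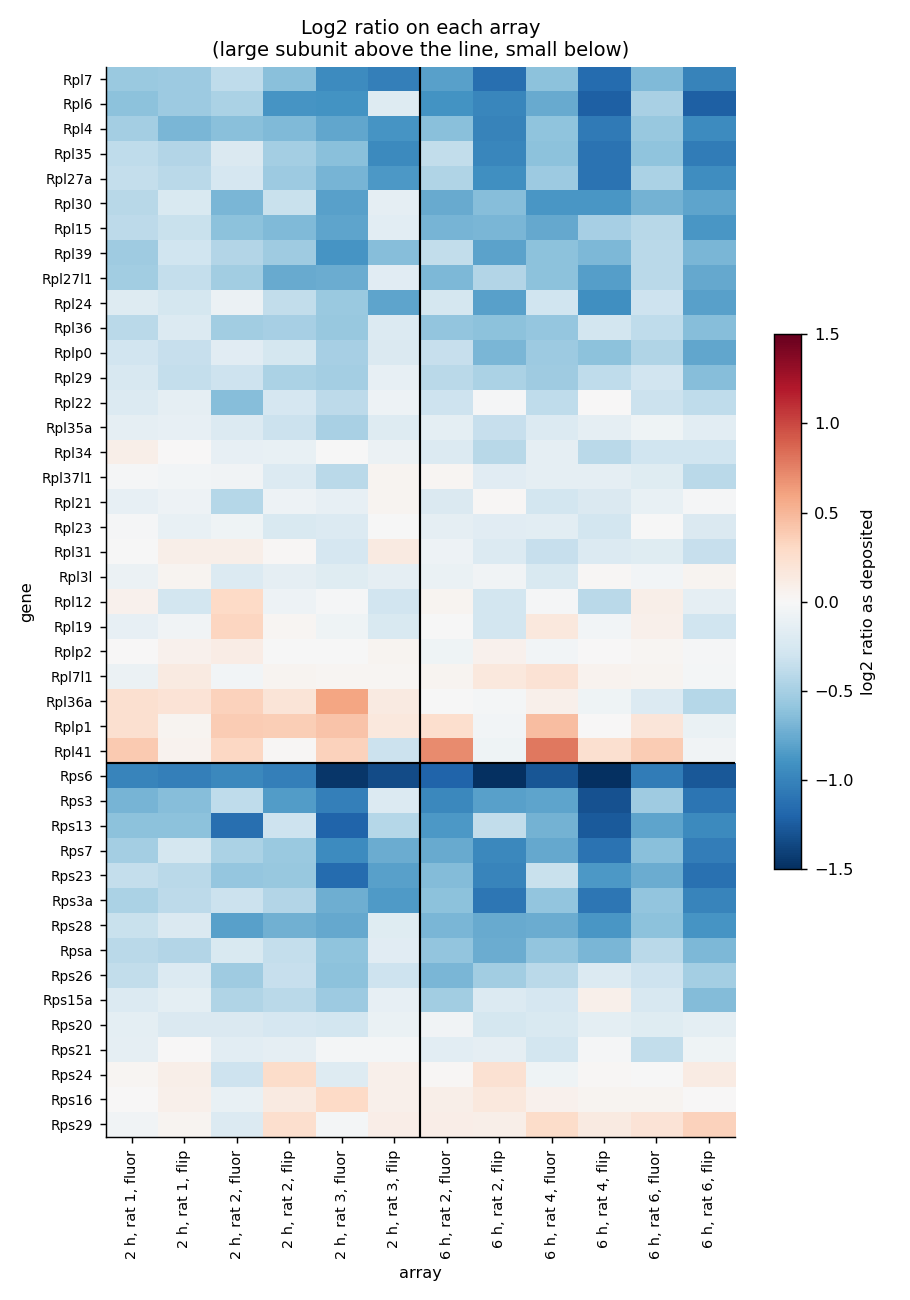
Log2 ratio of each of the 43 genes (rows) on each of the 12 arrays (columns, fluor and flip of each rat), on a colour scale from -1.5 (blue) to 1.5 (red), with large subunit genes above the line and small below. Rows such as Rps6 and Rpl4 are blue on all 12 arrays, and Rpl41 is red mainly on fluor arrays.

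Within each rat, both arrays ordered the members alike. Pearson r across the 43 genes was 0.88, 0.69 and 0.68 in 2 h rats 1, 2 and 3 and 0.78, 0.81 and 0.88 in 6 h rats 2, 4 and 6. Over the other genes it lay between -0.058 and 0.45. At 6 h the flip arrays gave the lower mean in 32 of 43 members, as for Rpl24 (-0.29 on fluor, -0.85 on flip) and Rpl35 (-0.53 and -1.05). At 2 h they did in 14 of 43. The medians of all named genes on the 6 h arrays lay between -0.0093 and 0.0022. In the limma fit with a dye term and a rat block, the fluor minus flip difference passed in 13 of 43 members. It was positive in some, as in Rpl41 (0.51, adjusted p = 0.000728), and negative in others, as in Rpl22 (-0.23, adjusted p = 0.0265). The shares over all named genes are not given for these counts. On the flip array of 2 h rat 3 the 26 genes that were lower at 2 h fell into separate ranges: 10 of them, among them Rps6 at -1.34, Rpl7 at -1.02 and Rpl4 at -0.88, lay at -0.64 or below, and 16, among them Rps3 at -0.21 and Rpl6 at -0.19, lay at -0.43 or above. On the fluor array of that rat Rps3 was at -1.02 and Rpl6 at -0.90. What sets that array apart was not tested. With flip arrays alone 18 members were lower at 2 h. Beside Rps13, the calls that ended there were those of Rpl15 (adjusted p = 0.058), Rpl22 (0.243), Rpl27l1 (0.0636), Rpl35a (0.0674), Rpl36 (0.0692), Rps15a (0.283) and Rps28 (0.0602) among the lower genes and Rpl36a (0.183) and Rplp1 (0.101) among the higher. At 6 h those of Rpl22 (0.253), Rps15a (0.161) and Rps21 (0.238) ended with flip arrays alone, beside Rpl41 and Rps29. With fluor arrays alone those of Rpl23 (0.185), Rpl31 (0.0858), Rpl35a (0.167) and Rps20 (0.0505) did.

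**Figure D4:**
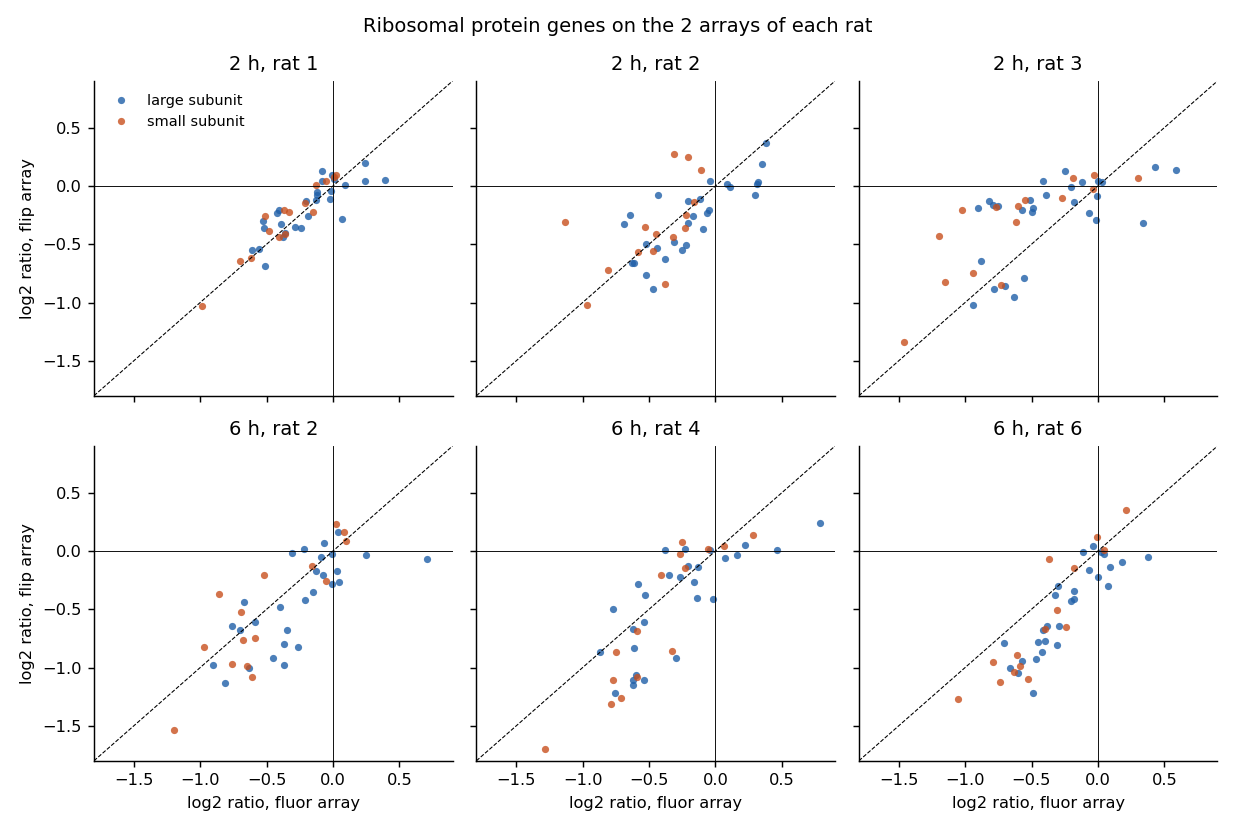
Log2 ratio of the 43 genes on the fluor array (horizontal axis) and the flip array (vertical axis) of each rat, with the dashed line marking equal values. Most genes are below 0 on both axes in every rat, and the flip array of 2 h rat 3 shows a gap between -0.64 and -0.43.

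The size of the change moved with the number of the probe on the array. Of 20 members with probe numbers up to 1000, 18 were lower at 2 h and 19 at 6 h, with medians of -0.50 and -0.61. Of 8 members numbered above 1000 and up to 2000, 4 were lower at each time, with medians of -0.21 and -0.37. Of 15 members numbered above 2000, 4 were lower at 2 h and 7 at 6 h, with medians of -0.080 and -0.14. Among other genes in these 3 ranges, 14.3%, 11.2% and 6.99% were lower at 2 h and 13.4%, 11.5% and 8.48% at 6 h. When the median of the 10 nearest probes was subtracted, 26 of the 28 calls at 2 h and 30 of the 32 at 6 h passed with the same sign; those of Rpl24 and Rps15a at 2 h and of Rpl41 and Rps15a at 6 h ended. The part of probe number in the result was not tested further.

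Mitochondrial ribosomal proteins, which build the separate ribosome of that organelle, lay near 0. Of 25 measured, 0 were lower at either time by limma, 2 were higher at 2 h and 1 at 6 h, and the medians were 0.020 and 0.0094. Their rat medians lay between -0.019 and 0.054 in all 6 rats, and those of the cytosolic genes between -0.45 and -0.23. The shares over all named genes were 9.82% lower and 9.34% higher at 2 h and 10.7% and 8.30% at 6 h. The list contrasts are descriptive, as genes of a list are not replicates.

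**Figure D5:**
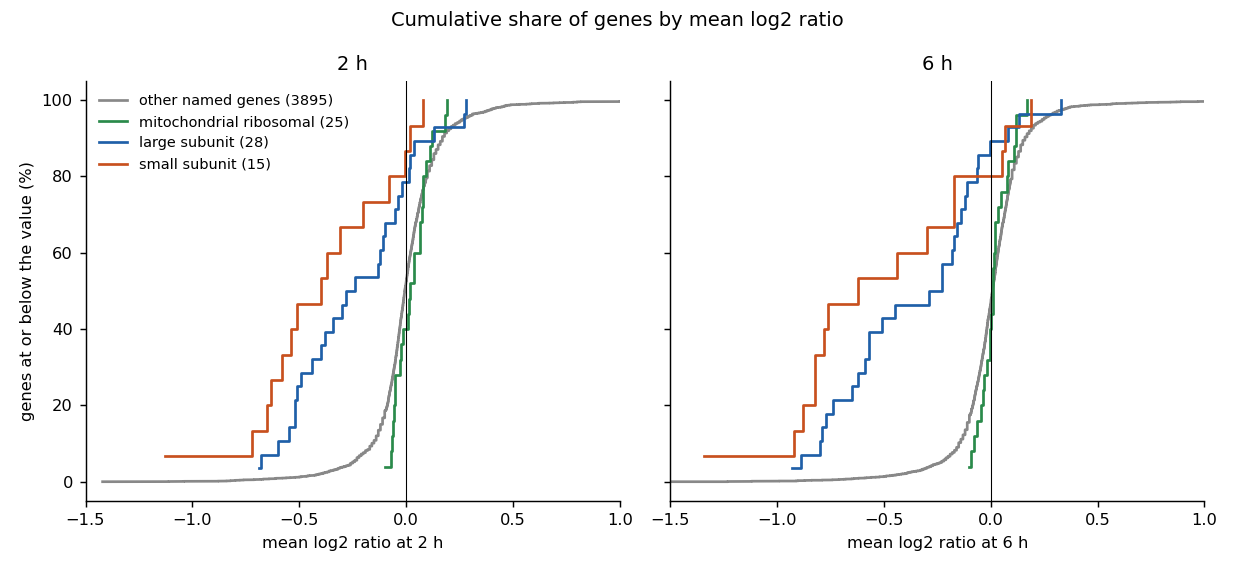
Cumulative share of genes (vertical axis, percent) at or below each mean log2 ratio (horizontal axis) at 2 h (left) and 6 h (right) for large subunit, small subunit, mitochondrial ribosomal and other named genes; values beyond the axes are not drawn. The medians of the small subunit (-0.40 and -0.62) and the large subunit (-0.26 at each time) lie left of those of the mitochondrial list (0.020 and 0.0094).

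Among other genes whose mRNAs carry a terminal oligopyrimidine tract, more were lower than higher. Of 11 measured, 7 were lower and 2 higher at 2 h, and 6 were lower and 0 higher at 6 h, with medians of -0.30 and -0.27. Among all named genes, 9.82% were lower and 9.34% higher at 2 h, and 10.7% and 8.30% at 6 h. Eef1a1, which brings aminoacyl-tRNA to the ribosome (-1.11 ± 0.11 and -0.99 ± 0.089), Eef2, which drives translocation (-0.63 ± 0.12 and -0.91 ± 0.17), and Rack1, a scaffold on the small subunit (-0.69 ± 0.17 and -0.90 ± 0.10), were lower at both times and below 0 on all 12 arrays. Vim (-0.76 ± 0.14 and -0.40 ± 0.18), Igbp1 (-0.30 ± 0.12 and -0.28 ± 0.17) and Hnrnpa1 (-0.17 ± 0.064 and -0.27 ± 0.054) were lower at both times too. Tpt1, a growth-related cytosolic protein, was higher at 2 h (0.31 ± 0.19, adjusted p = 0.0344), as was the initiation factor Eif4b (0.42 ± 0.10, adjusted p = 0.00471). The elongation factor list of 6 genes also holds Eef1a1 and Eef2, and it counts Eef2k and Eef1akmt1, which are not elongation factors themselves. Of these 6 genes, 2 were lower and 1 higher at 2 h, and 2 were lower and 2 higher at 6 h. Among those not in the tract list, Eef2k, the kinase that inhibits Eef2, was higher at 6 h (0.37 ± 0.074, adjusted p = 0.00132), and Eef1a2, a form of Eef1a1 found mainly in muscle and nerve, was higher at both times (0.49 ± 0.014 and 0.29 ± 0.15).

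Most genes that make or steer ribosomes did not pass. Of 15 ribosome biogenesis genes 4 (26.7%) were lower at 2 h (Npm1, Mybbp1a, Pes1 and Rrs1) and 1 (6.67%) at 6 h (Pes1). At either time 0 were higher, and the medians were -0.079 and -0.019. Npm1, a nucleolar chaperone that the tract list also holds, was at -0.37 ± 0.083 at 2 h (adjusted p = 0.0196) and -0.018 ± 0.22 at 6 h. Of 9 S6 kinase and TOR pathway genes, among them the kinases Rps6kb1, Rps6kb2 and Rps6ka4, limma passed 0 at either time, with medians of 0.038 and 0.038 and all means between -0.064 and 0.14. Of 19 genes in the initiation factor list, which also counts the binding proteins Eif4ebp1 and Eif4ebp2, 3 were lower (15.8%) and 2 higher (10.5%) at 2 h. At 6 h Eif4h alone was lower (-0.19 ± 0.022, adjusted p = 0.0111), 5.26% of that list. The shares over all named genes were 9.82% lower and 9.34% higher at 2 h and 10.7% and 8.30% at 6 h.

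Blood cell markers were counted in short lists, of 2 to 11 genes. Over all named genes 9.82% were lower and 9.34% higher at 2 h, and 10.7% and 8.30% at 6 h. Of 6 T cell genes 2 were lower at 2 h and 3 at 6 h, with rat medians from -0.13 to -0.093 and from -0.25 to -0.086; the T cell receptor component Cd3d was at -0.39 ± 0.11 and -0.69 ± 0.18. Of 5 B cell genes Cd37 (-0.45 ± 0.080 and -0.71 ± 0.033) and Blnk were lower at 2 h, and Cd37 lower and Cd24 higher at 6 h, with rat medians from -0.089 to 0.0023 and from -0.088 to 0.0087. Of 7 neutrophil genes 4 were higher and 1 lower at 2 h and 3 higher at 6 h. Their rat medians ran from 0.37 to 0.59 and from -0.027 to 0.070. S100a9 was highest at 2.98 ± 0.53 and 2.70 ± 0.44, but S100a8 passed at neither time (-0.083 ± 0.10 and -0.053 ± 0.073). Chi3l1 was higher at 2 h (0.57 ± 0.25) and did not pass at 6 h (-0.37 ± 0.24). Lcn2 and Il1r2, higher at both times, are also among the LPS-induced genes used above for the direction. Of 11 erythroid genes 5 were higher and 1 lower at 2 h, and 1 higher and 3 lower at 6 h. Their rat medians ran from 0.047 to 0.44 and from 0.011 to 0.22. The lower genes were globins: Hba-a1 at both times (-0.14 and -0.12) and Hbb (-0.16) and Hbb-b1 (-0.33) at 6 h. The higher genes were Slc4a1, Car2, Alas2, Add2 and Gata1 at 2 h and Gata1 at 6 h. Of 3 monocyte and macrophage genes 1 was lower at 2 h and 2 at 6 h, of 4 cytotoxic cell genes 2 were higher at each time, and of 2 platelet genes 1 was higher at 2 h. The part of these cell types in the ribosomal protein result was not tested.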

How the data were processed

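Total RNA of 6 LPS-treated rats was measured on 12 arrays. As deposited, each probe has 1 log2 ratio of the channels on each array; the log base was read from the values. The sources used here do not give the dyes, scanner, background correction or normalization. The medians of the arrays ran from -0.0202 to 0.0083. Intensities were not at hand, and the number of rats, 3 per time against 1 control pool, limits the precision.

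Probes were named from the platform annotation, and symbols were updated by gene identifier from the RefSeq table of GRCr8; only probes with 1 symbol were used, and probes of a gene were averaged. Fluor and flip arrays of a rat were averaged, and all 6 rats were fitted in 1 model of group means in limma 3.58.1 under R 4.3.3 (functions lmFit and eBayes, 4 residual degrees of freedom). Benjamini-Hochberg adjustment covered 3939 genes, with a threshold of 0.05. The script was tested on simulated data. The ± values are SDs over 3 rats unless marked SE.

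The members and lists were chosen with earlier results of these data known. Values in every rat are given for the 5 lowest and up to 3 highest members that passed at each time, for the stalk genes, Rps6 and Rpsa, and, chosen after their values were seen, for Rpl34, Rpl31 and Rps21; up to 3 genes are named per other translation list by the size of the 6 h mean, and others were named after their values were seen. Alternatives were the sign of the flip arrays, fluor or flip arrays alone, centring, scaling, quantile normalization, single probes, repeated values left out, neighbouring probes subtracted, a dye term with a rat block, another variance model, each time alone, and each rat left out. Sequences are RefSeq's (GRCr8).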

Additional observations from a re-analysis of the deposited data

How the results depend on the processing

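Over the settings other than the sign of the flip arrays, 18 to 27 members were lower at 2 h and 25 to 31 at 6 h. Of the 28 calls at 2 h 17, and of the 32 at 6 h 23, passed with the same sign in each of those 17 settings, and none took the other sign. Keeping Rpl5, an alternative chosen after seeing the data, gave the same counts and a 2 h median of -0.33. Flip arrays alone gave medians of -0.23 at 2 h and -0.23 for 6 h minus 2 h and 0 members higher at either time, and fluor arrays alone a 6 h median of -0.34. With single rats left out, 0 to 2 were higher at 2 h and 0 to 2 at 6 h, the 6 h median ran from -0.45 to -0.36, and 0 to 3 passed as lower for 6 h minus 2 h (3 without 2 h rat 3). There 1 passed with scaled arrays and 2 with all 12 arrays in a fit that holds a dye term and takes rats as random blocks. The cause of these differences was not tested.

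With the flip arrays multiplied by -1, 1 member was lower at 2 h (1 large, 0 small) and 1 at 6 h (0 large, 1 small), 13 were higher at 6 h, and the medians were -0.041, 0.064 and, for 6 h minus 2 h, 0.10. This is the other reading of the direction: values alike on both arrays cancel in it. Shares over all named genes are not given for it. At 2 h the signs of Rpl24 (0.10), Rpl27a (0.085), Rpl35 (0.11), Rpl4 (0.052), Rpl7 (0.051) and Rps3a (0.026) turned. At 6 h those of Rpl15 (0.028), Rpl23 (0.062), Rpl24 (0.28), Rpl27a (0.25), Rpl27l1 (0.059), Rpl29 (0.046), Rpl31 (0.027), Rpl34 (0.081), Rpl35 (0.26), Rpl35a (0.036), Rpl39 (0.12), Rpl4 (0.20), Rpl6 (0.21), Rpl7 (0.20), Rplp0 (0.12), Rps13 (0.035), Rps20 (0.015), Rps23 (0.21), Rps28 (0.079), Rps3 (0.16), Rps3a (0.23), Rps6 (0.16), Rps7 (0.16) and Rpsa (0.087) did.

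No paired analysis was possible because the rats of both times share a single number in the labels, and the labels do not say that it marks 1 animal. Without spot intensities, probes near background could not be told from the rest.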
